A study of Mus musculus with 30 samples.

Results

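The genes described here are the chaperones, folding enzymes, translocation machinery and stress factors of the endoplasmic reticulum (ER), measured in the uterus of prepubertal mice. They were chosen by name: of 36 listed genes, 34 had a probe set of their own on the array, out of 30142 genes tested in all. Manf and Pdia4 shared their probe sets with another symbol and have no value. Of the measured genes, 11 are chaperones and co-chaperones, 3 are protein disulfide isomerases, 4 are transcription factors of the XBP1, ATF6 and OASIS family arms, 6 belong to the ATF4 and CHOP arm, 5 to ER-associated degradation and 5 to the translocon and its associated TRAP complex.

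Secreted and membrane proteins enter the ER through the translocon, are folded there by chaperones and disulfide isomerases, and are sent back to the cytosol for degradation when folding fails. When folding demand exceeds capacity, the sensors IRE1, PERK and ATF6 start the unfolded protein response: IRE1 splices the Xbp1 message, ATF6 is cleaved to an active factor, and PERK phosphorylates eIF2alpha, which slows translation but favours the translation of ATF4. ATF4 is also the output of the amino acid response, which starts from another eIF2alpha kinase, so that its targets do not belong to ER stress alone. Estradiol turns the immature uterus into a growing, secreting organ within a day, and insulin-like growth factor 1 (IGF1) is one of the growth factors it induces.

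RNA came from the uterus of 21-day-old female WT mice and of mice labelled Ex3aERKO, called KO here, which lack the estrogen receptor alpha. Each genotype had 5 groups of 3 arrays. Vehicle mice received saline and were collected after 24 h. Estradiol (E2) mice received 250 ng once and were collected after 2 h or 24 h. IGF1 mice received 50 ug in PBS once and were collected after 2 h, or 3 times, at 0, 8 and 16 h, and were collected at 24 h. Every 2 h group was thus set against a vehicle collected at 24 h, and the last IGF1 injection was closer to collection than the E2 injection. The labels do not say in which cells the receptor gene was altered, or whether each array held 1 mouse or several. P-values therefore rest on the spread between arrays. That spread was pooled for each gene over all 10 groups, so it can differ from the spread within the groups compared.

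Levels are the deposited log2 values, and differences are log2 differences unless a fold is given. As a floor, each array has the level that 95% of 1225 olfactory receptor genes, taken as not expressed in uterus, do not exceed. It lay between 5.69 and 6.57. Array medians lay between 6.17 and 6.47. Esr1, the gene of the receptor, was at 11.44 to 12.73 on the 15 WT arrays and at 9.38 to 10.41 on the 15 KO arrays, all above the floor. A probe set outside the altered exon would still read the remaining transcript. WT vehicle replicate 1 stood apart: its mean correlation with its group was 0.974, the lowest of all arrays, and its Xist level was 10.16, against 17.01 to 18.12 on the other arrays. KO E2 24 h replicate 2 came next, with a correlation of 0.981. The effect of leaving each out is given beside the counts it touches.

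The promoters are shown first, with the elements of the stress arms that a search of their letters found. Sequences are those of RefSeq for GRCm38.p6, from 250 bases before to 50 bases after the annotated start, and 29 of the 34 genes had 1 (Fkbp11 had several). Sec61a1, Ssr2, Atf6, Creb3l1 and Hyou1 had none. Promoters were searched on both strands. The ER stress element is CCAAT, 9 bases and CCACG, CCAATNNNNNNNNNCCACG, known as the site of ATF6 together with NF-Y. It was present in 9 of 29 genes (31.0%) and in 39 of 32851 promoters of the same length (0.119%). These are its copies, with the CCAAT and CCACG ends in capitals and the gap between them in lower case, read on the strand that carries the element:
Hspa5: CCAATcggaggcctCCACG
Hsp90b1 distal site: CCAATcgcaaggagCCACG
Hsp90b1 proximal site: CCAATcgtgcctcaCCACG
Calr: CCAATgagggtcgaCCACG
Canx: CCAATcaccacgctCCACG
Dnajc3: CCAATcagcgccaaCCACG
Creld2: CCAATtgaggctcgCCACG
Pdia6: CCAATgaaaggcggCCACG
Syvn1: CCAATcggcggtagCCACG
Derl3: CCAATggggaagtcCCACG

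Of these genes 6 are chaperones or co-chaperones, 1 is a disulfide isomerase and 2, Syvn1 and Derl3, serve degradation. None of the 6 genes of the ATF4 and CHOP arm held it. The related element ER stress element II, which is ATTGG, any base and CCACG, was in Dnajb11 and Herpud1 (6.9% of the 29 genes, 0.0365% of all promoters), shown with 6 bases on each side and the element in capitals:
Dnajb11: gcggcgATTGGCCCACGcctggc
Herpud1: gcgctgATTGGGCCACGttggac

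The amino acid response element, TGATGNAA, to which ATF4 binds with a C/EBP partner, was in 4 genes (13.8%, against 3.97% of all promoters). Asns, Chac1 and Trib3 belong to the ATF4 and CHOP arm, and Herpud1 holds it beside ER stress element II. The element stands in capitals on the strand that carries it, with 6 bases on each side:
Asns: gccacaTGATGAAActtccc
Chac1: caggagTGATGCAAcggcag
Trib3: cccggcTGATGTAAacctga
Herpud1: gcgggcTGATGCAAcccgcc

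None of the 10 chaperone and co-chaperone genes with a promoter held the amino acid response element. The short core of the unfolded protein response element, TGACGTG, was in Hspa5 and Fkbp11 (6.9%, against 2.01% of all promoters). CCAAT anywhere, copies inside the elements included, was in 79.3% of the 29 genes and 37.4% of all promoters. Such shorter motifs were not counted as elements. Below are the 250 bases before the start of Hspa5 (chr2:34771840-34772089, plus strand), Chac1 (chr2:119350992-119351241, plus strand) and Herpud1 (chr8:94386179-94386428, plus strand), as examples of 3 of the combinations found, with each of the 4 elements searched in capitals on the strand of the gene:
Hspa5: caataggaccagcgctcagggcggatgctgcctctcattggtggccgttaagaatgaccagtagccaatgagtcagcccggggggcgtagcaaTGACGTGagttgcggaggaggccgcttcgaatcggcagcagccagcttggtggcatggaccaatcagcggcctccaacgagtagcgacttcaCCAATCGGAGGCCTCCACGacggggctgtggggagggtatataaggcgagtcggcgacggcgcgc
Chac1: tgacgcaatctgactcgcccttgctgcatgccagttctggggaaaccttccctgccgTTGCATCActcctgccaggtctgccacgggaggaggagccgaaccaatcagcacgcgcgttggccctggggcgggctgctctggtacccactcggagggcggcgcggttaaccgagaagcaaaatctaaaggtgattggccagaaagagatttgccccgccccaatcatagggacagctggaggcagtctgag
Herpud1: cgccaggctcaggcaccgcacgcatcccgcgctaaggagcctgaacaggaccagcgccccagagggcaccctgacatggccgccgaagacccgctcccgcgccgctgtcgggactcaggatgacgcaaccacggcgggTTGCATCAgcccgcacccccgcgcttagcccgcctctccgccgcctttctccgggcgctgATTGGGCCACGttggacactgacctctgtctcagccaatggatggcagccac

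In Hspa5 the capitals mark TGACGTG and then the ER stress element, which spans bases -65 to -47 from the start. In Chac1 they mark the amino acid response element on the opposite strand. In Herpud1 they mark that element, also on the opposite strand, and then ER stress element II.

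In WT uteri every treatment raised a share of these genes, and no gene was called lower in any of the 4 comparisons with vehicle (limma, Benjamini-Hochberg adjusted p under 0.05 over all 30142 genes). After E2 for 2 h, 17 of 34 genes were higher, where 9.84% of all genes were called higher and 9.18% lower. After E2 for 24 h, 24 were higher, where the shares were 16.8% higher and 13.3% lower (30.1% together). IGF1 raised 23 genes after 2 h, where 9.54% of genes were higher and 7.64% lower, and 11 after 24 h, against 3.32% higher and 4.28% in either direction. The median change of the 34 genes was 0.67, 1.39, 0.92 and 0.56 in that order, and the median of all genes was -0.09, -0.10, -0.08 and -0.07. The 4 comparisons share the vehicle arrays.

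In KO uteri few of these genes were called after E2 and more after IGF1. E2 raised 2 genes after 2 h, where 0.259% of all genes were called higher, and 17 members were higher at an unadjusted p under 0.05, where 12.2% of all genes passed in either direction. It raised 0 after 24 h, where 0% of all genes were called in either direction; at an unadjusted limma p under 0.05, 1 gene was higher and 3 were lower at 24 h, a share near the 12.4% of all genes. IGF1 raised 12 genes after 2 h, against 4.19% of genes higher and 2.95% lower, and 19 after 24 h, against 9.28% higher and 4.35% lower. At an unadjusted limma p under 0.05, 16 members were higher after IGF1 for 2 h, where 20.1% of all genes passed in either direction. The median KO change of the 34 genes was 0.46 and -0.10 after E2 for 2 h and 24 h, and 0.36 and 0.62 after IGF1. The median of all genes was -0.06, 0.08, -0.04 and -0.04 in that order. At 2 h the agents thus differed in the number of calls more than in the median change. Without treatment 0 of the 34 genes was called between the genotypes by the same limma test, where 1.61% of all genes were higher and 1.3% lower in KO (2.92% together), and 1 gene was higher at an unadjusted p under 0.05.

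**Figure D1:**
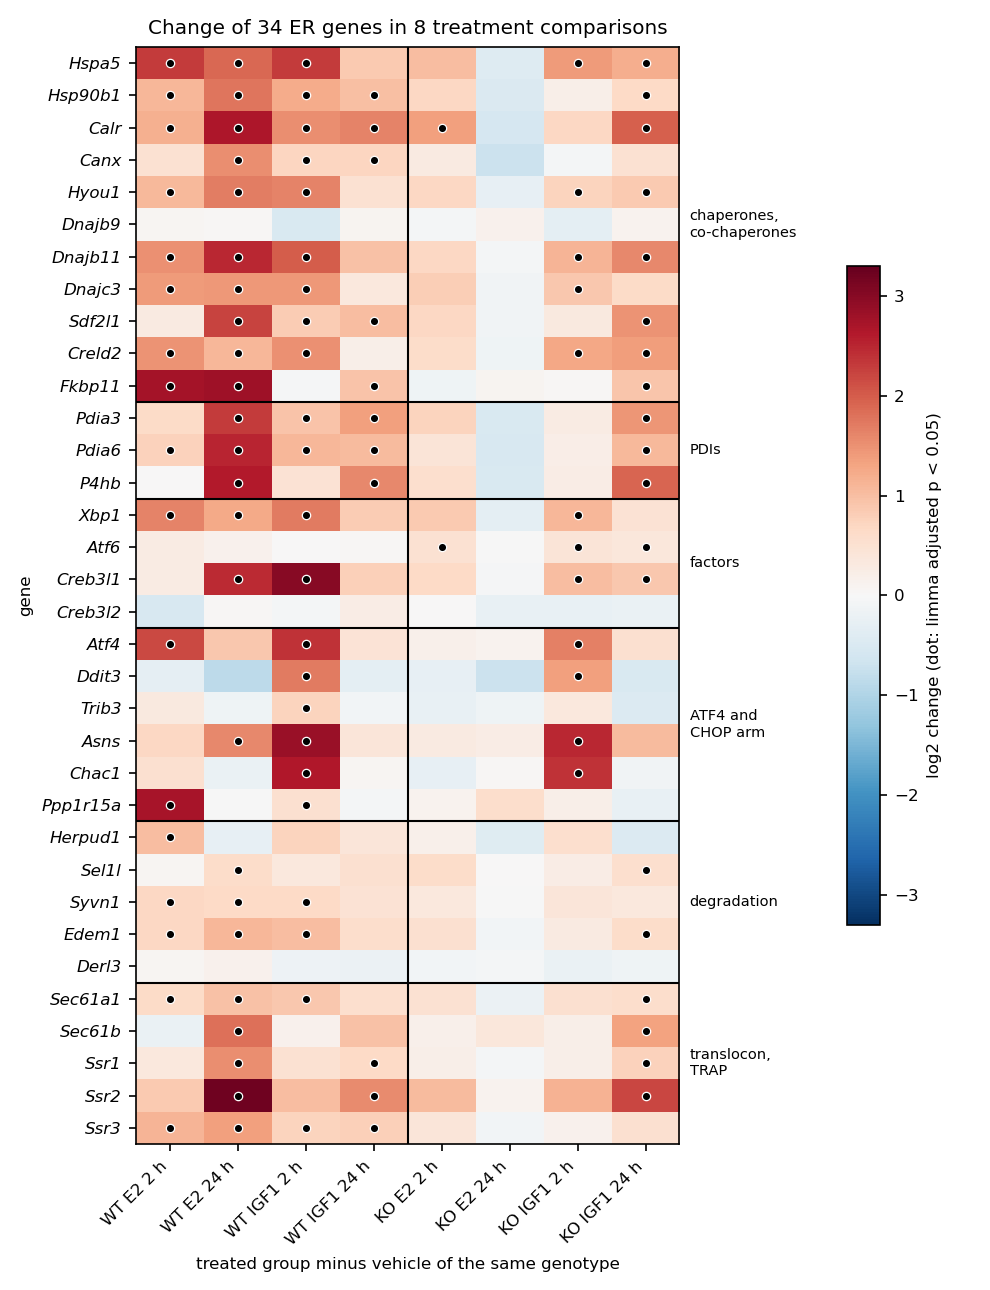
Log2 change of each of the 34 genes (rows, grouped by role) in 8 comparisons of a treated group with the vehicle group of its genotype (columns). Colour gives the change, from blue (lower) to red (higher), and a dot marks limma adjusted p under 0.05. Dots fill most of the E2 24 h column in WT and none of that column in KO, and the ATF4 and CHOP arm carries dots mainly in the IGF1 2 h columns.

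Some counts depended on single arrays. Without WT vehicle replicate 1, 13 genes were higher and 1, Creb3l2, was lower in WT after E2 for 2 h, 23 were higher after E2 for 24 h, 18 after IGF1 for 2 h and 4 after IGF1 for 24 h. The last count was also 4 without WT IGF1 24 h replicate 1 and without replicate 3. The count of 12 for KO IGF1 2 h fell to 0 without replicate 1, to 5 without replicate 2, and to 7 and 5 without KO vehicle replicates 1 and 2; without replicate 3 it was 16 higher and 1 lower. The 19 genes of KO IGF1 24 h became 12 without its replicate 2 or without KO vehicle replicate 2. The 2 genes of KO E2 2 h became 0 without its replicate 2 or without any 1 of the KO vehicle arrays, and 1 without its replicate 1.

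Hspa5 encodes BiP, the HSP70 chaperone of the ER that also holds the stress sensors inactive, and it was among the genes that E2 raised fastest. Its level was 10.49, 10.96 and 11.08 on the 3 WT vehicle arrays, 13.27, 13.16 and 13.01 after E2 for 2 h, and 12.68, 12.69 and 12.87 after E2 for 24 h. IGF1 gave 13.17, 12.92 and 13.36 after 2 h and 11.79, 11.23 and 12.12 after 24 h. No array of these treated groups overlapped with vehicle, though the 24 h IGF1 values came close. The change was 2.30 ± 0.29 (SE; 4.94-fold, limma adjusted p = 2.12e-06) after E2 for 2 h, 1.91 ± 0.29 (adjusted p = 1.72e-05) after E2 for 24 h and 2.31 ± 0.29 (adjusted p = 1.17e-05) after IGF1 for 2 h, and 0.87 ± 0.29 after IGF1 for 24 h was not called. In KO, vehicle arrays read 10.55, 10.55 and 11.06 and E2 arrays 11.71, 12.31 and 11.23 at 2 h and 10.51, 9.87 and 10.49 at 24 h. The KO change with E2 was 1.03 ± 0.29 at 2 h and -0.43 ± 0.29 at 24 h, neither called, whereas IGF1 raised Hspa5 by 1.40 ± 0.29 (limma adjusted p = 0.00474) at 2 h and 1.19 ± 0.29 (adjusted p = 0.00607) at 24 h.

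Calr encodes calreticulin, the soluble lectin chaperone of glycoproteins, and rose most after a day of E2. WT levels were 12.40, 11.88 and 12.16 with vehicle, 13.26, 13.42 and 13.29 after E2 for 2 h and 14.94, 14.79 and 14.74 after E2 for 24 h. The 3 groups did not overlap and stood in that order. The change was 1.18 ± 0.29 at 2 h and 2.68 ± 0.29 at 24 h (6.39-fold, limma adjusted p = 1.97e-07). In KO, E2 gave 13.21, 13.96 and 12.92 at 2 h against 12.15, 11.76 and 12.09 with vehicle, a rise of 1.37 ± 0.29 (adjusted p = 0.0356), and 11.52, 10.93 and 11.91 at 24 h. Calr and Atf6 were the 2 genes that E2 raised in KO at 2 h, and neither call held without KO E2 2 h replicate 2 or without any 1 of the KO vehicle arrays. IGF1 for 24 h raised Calr by 1.64 ± 0.29 in WT and 1.96 ± 0.29 in KO.

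Sdf2l1, a partner of BiP and ERdj3 (the product of Dnajb11), was higher at 24 h of E2 than at 2 h. Its WT arrays read 7.24, 7.06 and 7.13 with vehicle, 7.45, 7.52 and 7.32 after E2 for 2 h and 9.12, 9.40 and 9.56 after E2 for 24 h. The early change was 0.29 ± 0.28 and not called, and the late change was 2.22 ± 0.28 (4.65-fold, limma adjusted p = 2.17e-06). Dnajb11 itself rose at both times, by 1.51 ± 0.30 and 2.49 ± 0.30. Creld2, a disulfide isomerase-like factor and textbook target of ER stress, gave 9.999, 8.96 and 8.95 in WT vehicle, 11.01, 10.75 and 10.60 after E2 for 2 h and 10.34, 10.20 and 10.65 after 24 h. The vehicle array at 9.999 was replicate 1. The change of Creld2 was 1.49 ± 0.30 early and 1.10 ± 0.30 late with all arrays, and 1.84 ± 0.30 and 1.44 ± 0.30 without that array.

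Fkbp11, a prolyl isomerase of the secretory pathway, separated E2 from IGF1 at 2 h in WT. It read 5.92, 5.79 and 5.71 with WT vehicle, within the floor, and 8.69, 8.07 and 8.89 after E2 for 2 h and 8.82, 8.54 and 8.47 after E2 for 24 h. After IGF1 for 2 h it read 5.85, 5.50 and 5.93, within the floor again, and after 24 h 7.19, 6.49 and 6.54. It was thus at least 5.39-fold higher after E2 for 2 h (change 2.74 ± 0.24, limma adjusted p = 7.72e-09) and at least 5.63-fold higher after 24 h. The KO arrays lay within the floor after E2, at 5.50, 5.81 and 5.29 early and 5.60, 5.83 and 5.89 late. After IGF1 for 24 h it was also called higher, at least 1.54-fold in WT (0.93 ± 0.24, adjusted p = 0.0253) and at least 1.42-fold in KO (0.92 ± 0.24, adjusted p = 0.0104), where arrays read 6.11, 6.85 and 6.81 against 6.16, 5.21 and 5.64 with vehicle. Bounds marked "at least" set the brighter mean against the floor of the dimmer group.

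**Figure D2:**
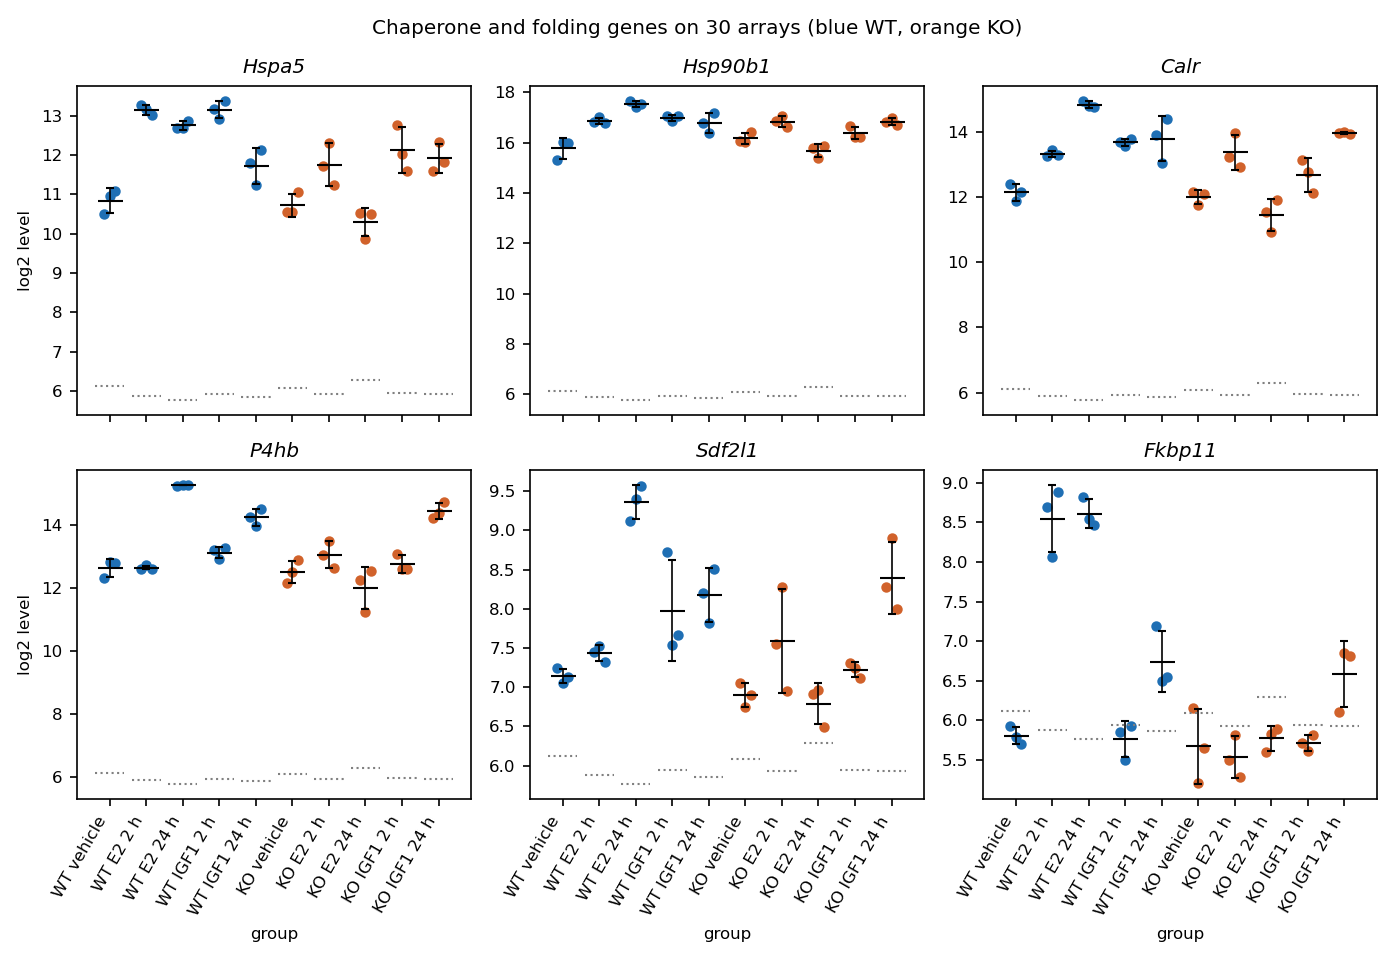
Deposited log2 level of 6 genes on all 30 arrays, by group on the horizontal axis. Points are arrays (blue WT, orange KO), the black tick and bar are the mean and SD of 3 arrays, and the dotted grey line is the floor of the group; each panel has its own vertical range. Hspa5 is high in WT at both E2 times, P4hb is highest at 24 h of E2 in WT, from 15.24 to 15.26, and Fkbp11 leaves the floor with E2 in WT.

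The other chaperones mostly rose in WT. Hsp90b1 (GRP94) was raised by all 4 WT treatments, most by E2 for 24 h, at 1.76 ± 0.20. Its WT vehicle arrays read 15.29, 16.02 and 15.99, with replicate 1 the lowest. Canx, the membrane-bound relative of calreticulin, rose by 1.52 ± 0.20 after E2 for 24 h in WT. In KO it had the largest difference of any member after E2 for 24 h, with 13.82, 13.10 and 13.65 against 14.04, 14.23 and 14.43 with vehicle, lower on every array by -0.71 ± 0.20 but not called (limma adjusted p = 0.172). Hyou1, the exchange factor that reloads BiP, rose by 1.06 ± 0.20 and 1.70 ± 0.20 after 2 h and 24 h of E2. Dnajc3 (p58IPK), a co-chaperone that also restrains eIF2alpha kinases, rose by 1.39 ± 0.22 and 1.44 ± 0.22. Dnajb9 (ERdj4), a textbook XBP1 target, was called in none of the 8 comparisons with vehicle: its changes ran from -0.51 to 0.15, and its WT arrays stayed between 9.50 and 10.63.

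All 3 protein disulfide isomerases were higher at 24 h of E2 than at 2 h in WT. P4hb, which also serves as the beta subunit of prolyl hydroxylase for collagen, read 12.31, 12.81 and 12.77 with WT vehicle, 12.61, 12.70 and 12.60 after E2 for 2 h and 15.24, 15.26 and 15.26 after E2 for 24 h. The early arrays lay within the vehicle range and the late arrays were clear of both. The late change was 2.62 ± 0.26 (6.17-fold, limma adjusted p = 4.63e-08), and the early one was 0.01 ± 0.26. Pdia6 rose by 0.76 ± 0.26 at 2 h and 2.51 ± 0.26 at 24 h, and Pdia3 (ERp57), the partner of calnexin and calreticulin, rose by 2.30 ± 0.26 at 24 h alone. IGF1 for 2 h raised Pdia6 by 1.10 ± 0.26 and Pdia3 by 0.95 ± 0.26 in WT, and P4hb, at 0.48 ± 0.26, was not called. IGF1 for 24 h raised all 3 in both genotypes, by 1.06 to 1.60 in WT and 1.06 to 1.93 in KO.

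Xbp1, whose spliced message encodes the factor downstream of IRE1, rose early with either agent. WT vehicle arrays read 8.91, 10.51 and 10.55, E2 arrays 11.60, 11.68 and 11.57 at 2 h and 11.20, 11.27 and 11.21 at 24 h, and IGF1 arrays 11.63, 11.91 and 11.55 at 2 h. The low vehicle value came from replicate 1, so the change after E2 for 2 h was 1.63 ± 0.29 with it (limma adjusted p = 0.000218) and 1.09 ± 0.22 without it (adjusted p = 0.000874). The change after IGF1 for 2 h was 1.71 ± 0.29 with it and 1.17 ± 0.22 without it. The probe set was read as 1 gene, and spliced and unspliced messages were not told apart. KO arrays rose after IGF1 for 2 h by 1.11 ± 0.29 (limma adjusted p = 0.0225) and gave 0.86 ± 0.29 after E2 for 2 h, which was not called.

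Creb3l1 (OASIS), a membrane-bound factor that is cleaved like ATF6 and is known for driving collagen secretion, had the largest rise with IGF1. Its WT arrays read 6.68, 6.39 and 6.43 with vehicle, 9.60, 9.12 and 9.79 after IGF1 for 2 h and 7.46, 7.0002 and 7.43 after IGF1 for 24 h. With E2 the order of the times was the reverse, with 6.87, 6.86 and 6.56 at 2 h and 8.92, 8.89 and 9.04 at 24 h. The change was 3.01 ± 0.23 after IGF1 for 2 h (8.03-fold, limma adjusted p = 4.79e-08), 0.26 ± 0.23 after E2 for 2 h and 2.45 ± 0.23 after E2 for 24 h (5.47-fold, adjusted p = 2.88e-08). In KO the IGF1 2 h arrays read 7.85, 7.38 and 7.22 against 6.57, 6.23 and 6.59 with vehicle, a rise of 1.02 ± 0.23 (adjusted p = 0.0094). Atf6 moved little: it was called in KO after E2 for 2 h (0.50 ± 0.11), IGF1 for 2 h (0.42 ± 0.11) and IGF1 for 24 h (0.38 ± 0.11), and in no WT comparison with vehicle. Creb3l2 was called in none of the 8.

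All 6 genes of the ATF4 and CHOP arm were called after IGF1 for 2 h in WT, and 2 of them, Atf4 and Ppp1r15a, after E2 for 2 h. Atf4 encodes the factor of the arm. Its WT arrays read 8.89, 8.73 and 9.19 with vehicle, 11.21, 10.76 and 11.37 after E2 for 2 h and 11.20, 11.70 and 11.04 after IGF1 for 2 h. At 24 h they read 9.82, 9.70 and 9.94 with E2 and 9.61, 9.18 and 9.39 with IGF1. Both early groups lay clear of vehicle and covered much the same range as each other. The early change was 2.18 ± 0.37 with E2 (4.52-fold, limma adjusted p = 0.00012) and 2.38 ± 0.37 with IGF1 (5.19-fold, adjusted p = 8.53e-05).

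Ddit3, which encodes the stress factor CHOP, rose with IGF1 and was not called with E2. WT arrays read 10.33, 10.77 and 10.81 with vehicle, 10.40, 10.26 and 10.33 after E2 for 2 h and 11.94, 12.76 and 12.37 after IGF1 for 2 h. The E2 arrays reached into the vehicle range and the IGF1 arrays lay above it. The change was -0.31 ± 0.38 with E2 and 1.72 ± 0.38 with IGF1 (3.29-fold, limma adjusted p = 0.00236). Ddit3 had a second probe set, which gave 1.17 ± 0.45 after IGF1 for 2 h (adjusted p = 0.0738), not called, and -1.28 ± 0.45 after E2 for 24 h (adjusted p = 0.032), called lower where the first gave -0.85 ± 0.38, not called.

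Asns, the asparagine synthetase, and Chac1, an enzyme that degrades glutathione, also rose with IGF1 for 2 h and varied more between arrays than Ddit3. Unlike those of Ddit3, their arrays after E2 for 2 h lay above every vehicle array, though neither gene was called. Asns read 6.82, 6.83 and 7.07 with WT vehicle, 7.54, 7.62 and 7.58 after E2 for 2 h and 9.10, 11.10 and 9.06 after IGF1 for 2 h. Chac1 read 5.04, 4.83 and 5.08 with vehicle, within the floor, 5.71, 5.38 and 5.49 after E2 for 2 h, also within the floor, and 7.01, 8.88 and 6.98 after IGF1 for 2 h. Replicate 2 of the IGF1 group was the highest array for both genes. Asns rose by 2.85 ± 0.58 with IGF1 (7.20-fold, limma adjusted p = 0.00115) and gave 0.67 ± 0.58 with E2. Chac1 was at least 2.84-fold higher with IGF1 (2.64 ± 0.64, adjusted p = 0.00473) and gave 0.54 ± 0.64 with E2. Asns was also called after E2 for 24 h (1.60 ± 0.58, adjusted p = 0.0416), a call lost without any 1 of the 6 arrays. Trib3, a pseudokinase that restrains ATF4, was within the floor in all 10 groups by its mean, so its called difference after IGF1 for 2 h (0.73 ± 0.21, adjusted p = 0.0174) is given with no fold; 1 array, replicate 2 at 6.27, lay above the others at 5.22 and 5.25.

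Ppp1r15a (GADD34), the phosphatase subunit that reverses eIF2alpha phosphorylation, rose most with E2. It read 6.62, 6.41 and 7.002 with WT vehicle, 9.54, 9.32 and 9.35 after E2 for 2 h, 6.61, 6.58 and 6.80 after E2 for 24 h and 7.07, 7.37 and 7.15 after IGF1 for 2 h. Only the early E2 arrays stood far from vehicle. The change after E2 for 2 h was 2.73 ± 0.14 (6.63-fold, limma adjusted p = 1.21e-12), that after IGF1 for 2 h was 0.52 ± 0.14 (1.44-fold, adjusted p = 0.0133), and that after E2 for 24 h was -0.01 ± 0.14.

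In KO, 4 of the 6 genes of this arm were called after IGF1 for 2 h, and the arrays disagreed for these 4. After IGF1 for 2 h Atf4 read 11.78, 10.51 and 9.15, Ddit3 12.85, 12.85 and 10.71, Asns 10.47, 10.42 and 6.96, and Chac1 8.70, 9.07 and 4.78. For Atf4 and Chac1 replicate 3 stood near the KO vehicle arrays, which ran from 8.73 to 8.90 and 4.99 to 5.36. For Asns and Ddit3 it lay inside the range of the KO vehicle arrays, 6.56 to 7.10 and 10.44 to 11.24. With all arrays the rise was 2.48 ± 0.58 for Asns (limma adjusted p = 0.0117), 2.39 ± 0.64 for Chac1 (adjusted p = 0.0234), 1.66 ± 0.37 for Atf4 (adjusted p = 0.00852) and 1.35 ± 0.38 for Ddit3 (adjusted p = 0.0335). Without replicate 3 it was 3.64 ± 0.38, 3.76 ± 0.34, 2.32 ± 0.28 and 2.06 ± 0.28, and without replicate 1 none of the 4 was called. The other members of the arm were not called: Ppp1r15a read 7.19, 6.97 and 7.23 and gave 0.19 ± 0.14, and Trib3 gave 0.34 ± 0.21. Of 12 ATF4 targets outside the listed genes, replicate 3 was the lowest of the 3 arrays for 10, with 9.36, 9.78 and 6.36 for Mthfd2. It was not the lowest for Ddit4, at 8.45, 6.76 and 7.94, and Vldlr, at 8.84, 8.41 and 8.86. For Cth, at 9.18, 9.16 and 8.41, replicate 3 was lowest but above the KO vehicle arrays.

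**Figure D3:**
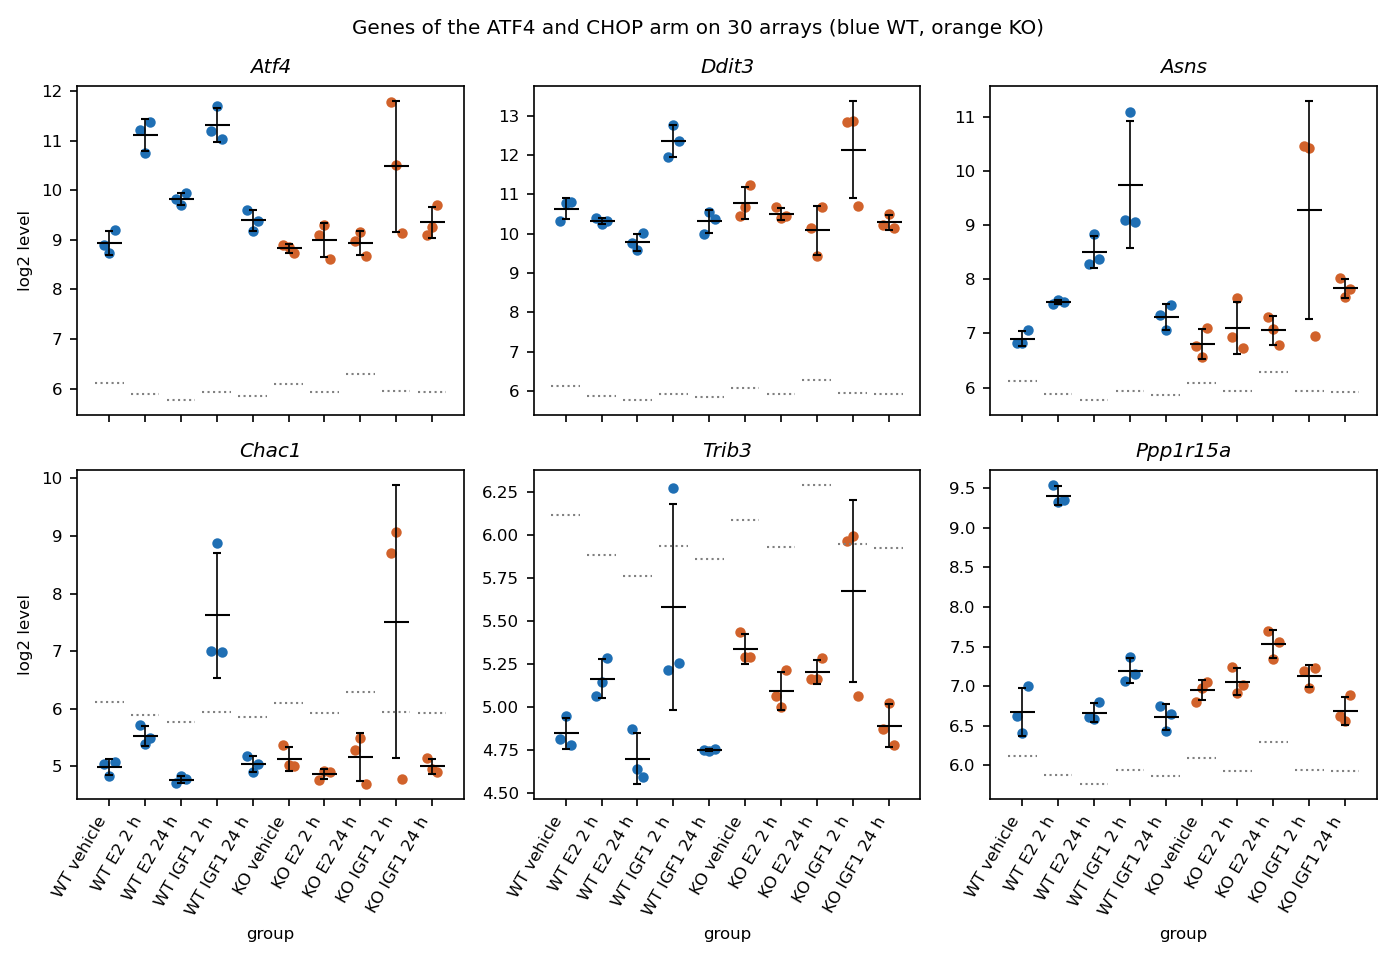
Deposited log2 level of the 6 genes of the ATF4 and CHOP arm on all 30 arrays, by group on the horizontal axis. Points are arrays (blue WT, orange KO), the black tick and bar are the mean and SD of 3 arrays, and the dotted grey line is the floor of the group; each panel has its own vertical range. Ppp1r15a is high in WT E2 2 h alone, Ddit3, Asns and Chac1 are high after IGF1 for 2 h, and 1 KO array of that group stays near vehicle level.

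The genes of ER-associated degradation changed less. Herpud1, which scaffolds the retrotranslocation complex, read 8.99, 9.88 and 9.97 with WT vehicle and 10.63, 10.51 and 10.75 after E2 for 2 h, a rise of 1.02 ± 0.33 (limma adjusted p = 0.0285) that became 0.71 ± 0.34 (adjusted p = 0.198) without vehicle replicate 1, whose value was the lowest. Edem1 is a lectin that hands misfolded glycoproteins on. Its WT vehicle arrays read 7.27, 8.13 and 8.14, with replicate 1 again the lowest. With all arrays it rose by 0.68 ± 0.20, 1.10 ± 0.20 and 1.03 ± 0.20 after E2 for 2 h, E2 for 24 h and IGF1 for 2 h. Syvn1 (HRD1), the ubiquitin ligase of the pathway, rose by 0.65 to 0.67 in the same comparisons. Sel1l, its adaptor, rose after E2 for 24 h by 0.62 ± 0.17. Derl3, a channel component of degradation in secretory cells, was called nowhere. It read 6.20, 6.24 and 6.43 with WT vehicle, 6.20, 6.49 and 6.39 after E2 for 2 h and 6.61, 6.48 and 6.19 after E2 for 24 h. All its arrays ran from 5.97 to 6.61, near the floor, although its promoter holds the ER stress element shown above.

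Among the translocon and TRAP genes, Ssr2, Sec61b and Ssr1 were raised by E2 mainly at 24 h in WT. Ssr3 and Sec61a1 were already called at 2 h of E2, at 1.12 ± 0.20 and 0.63 ± 0.19 (limma adjusted p = 0.000158 and 0.0174). These did not differ beyond the test between 24 h and 2 h of E2, and both were also called after IGF1 for 2 h in WT. Ssr2, a subunit of the TRAP complex beside the translocon, had the largest change of all members after E2 for 24 h. Its WT arrays read 10.64, 11.02 and 11.14 with vehicle, 11.67, 11.73 and 11.96 after E2 for 2 h and 13.96, 14.28 and 14.17 after E2 for 24 h. The late arrays lay clear of both other groups, and the change was 3.20 ± 0.37 (9.19-fold, limma adjusted p = 4.38e-07). All 5 translocon and TRAP genes rose after E2 for 24 h in WT, with Sec61b, a subunit of the channel, at 1.83 ± 0.33, Ssr1 at 1.53 ± 0.18, Ssr3 at 1.35 ± 0.20 and Sec61a1, the channel itself, at 0.96 ± 0.19. For Ssr3 the WT vehicle arrays read 10.80, 11.72 and 11.72, with replicate 1 the lowest. In KO, IGF1 for 24 h raised Ssr2 by 2.19 ± 0.37 (adjusted p = 0.000334), Sec61b by 1.34 ± 0.33, Ssr1 by 0.77 ± 0.18 and Sec61a1 by 0.58 ± 0.19.

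The 24 h group of each agent was also set against its 2 h group. E2 was injected once at both times. For IGF1 the 24 h mice had 3 injections, the last at 16 h, so time and dosing cannot be told apart. With E2 in WT, 15 genes were higher at 24 h and 3 were lower, where 17% of all genes were called higher and 10.4% lower. P4hb (2.62 ± 0.26), Ssr2 (2.35 ± 0.37), Creb3l1 (2.19 ± 0.23), Sec61b (2.05 ± 0.33) and Sdf2l1 (1.93 ± 0.28) led the genes higher at 24 h. Ppp1r15a (-2.74 ± 0.14), Atf4 (-1.29 ± 0.37) and Herpud1 (-1.27 ± 0.33) were lower at 24 h. These 3 are 8.82% of the members, no more than the share of all genes called lower. Hspa5 and Xbp1 did not differ beyond the test between the times, at -0.40 ± 0.29 and -0.39 ± 0.29, and Ddit3 gave -0.55 ± 0.38.

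With IGF1 in WT, 2 genes were higher at 24 h and 13 were lower, where 7.94% of all genes were called higher and 6.57% lower. Chac1 (-2.58 ± 0.64), Asns (-2.45 ± 0.58), Creb3l1 (-2.21 ± 0.23), Ddit3 (-2.05 ± 0.38) and Atf4 (-1.92 ± 0.37) led the genes lower at 24 h. Hspa5 gave -1.43 ± 0.29 and Xbp1 -0.86 ± 0.29. P4hb (1.11 ± 0.26) and Fkbp11 (0.98 ± 0.24) were higher at 24 h, after 3 injections.

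In KO the 2 agents differed in the same comparison. With E2, 1 gene, Ppp1r15a, was higher at 24 h than at 2 h and 14 were lower, where 6.08% of all genes were called higher and 3.34% lower, led by Calr (-1.91 ± 0.29), Hspa5 (-1.46 ± 0.29), Pdia3 (-1.24 ± 0.26) and Xbp1 (-1.17 ± 0.29), while Atf4 and Ddit3 gave -0.06 ± 0.37 and -0.42 ± 0.38. These 15 calls became 3 without KO E2 2 h replicate 2 or KO E2 24 h replicate 2, and 7 without KO E2 2 h replicate 1. With IGF1, 8 genes were higher at 24 h and 3 were lower, against backgrounds of 5.68% and 3.3%. P4hb stood at 1.67 ± 0.26 and Calr at 1.29 ± 0.29, Ddit3 at -1.85 ± 0.38 and Chac1 at -2.52 ± 0.64. Hspa5, Xbp1 and Atf4 gave -0.21 ± 0.29, -0.63 ± 0.29 and -1.13 ± 0.37, not called. These 11 calls became 5 without KO IGF1 2 h replicate 2 and 6 without KO IGF1 24 h replicate 2 or 3.

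**Figure D4:**
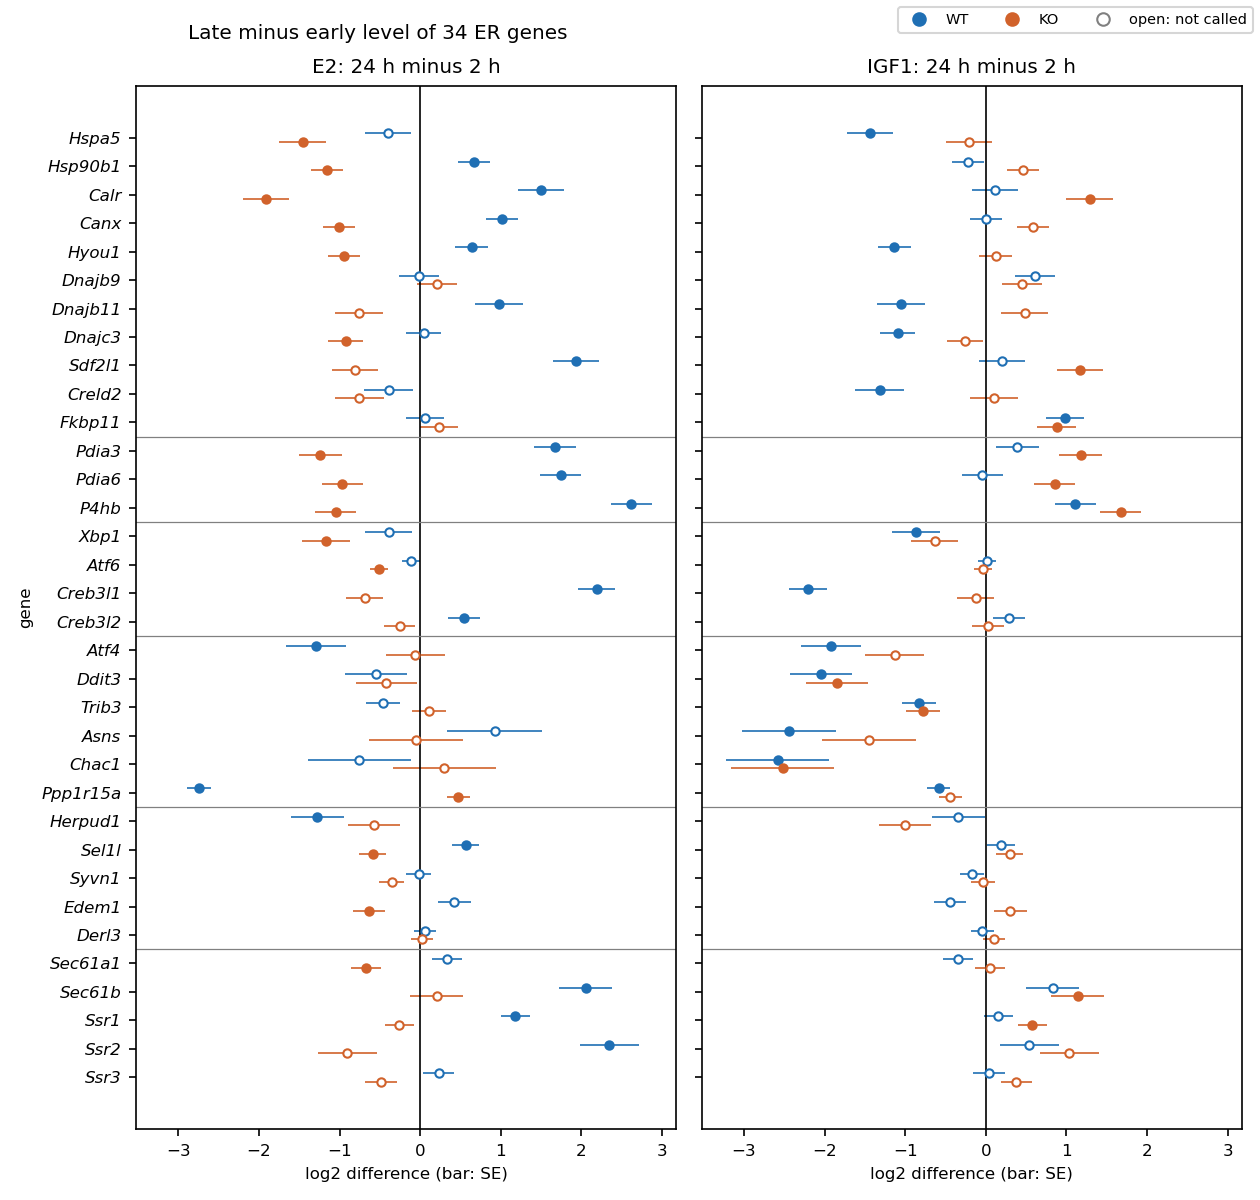
Difference between 24 h and 2 h of E2 (left) and of IGF1 (right) for each of the 34 genes, on the log2 scale with its standard error. Blue is WT, orange is KO, filled points have limma adjusted p under 0.05, and points right of the line are higher at 24 h. With E2 the disulfide isomerases lie right of the line in WT and left of it in KO, and with IGF1 the ATF4 and CHOP arm lies left of it in both genotypes.

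The direct comparison of E2 with IGF1 at 2 h in WT picked out few genes. E2 was higher in 2 and lower in 3, where 2.8% of all genes were called higher and 2.77% lower (5.57% together). Fkbp11 (2.79 ± 0.24, at least 6.11-fold, limma adjusted p = 8.22e-09) and Ppp1r15a (2.21 ± 0.14, adjusted p = 9.75e-11) were higher with E2. Creb3l1 (-2.74 ± 0.23, adjusted p = 7.23e-09), Asns (-2.17 ± 0.58, adjusted p = 0.0242) and Ddit3 (-2.03 ± 0.38, adjusted p = 0.00103) were higher with IGF1, and the second Ddit3 probe set gave -2.16 ± 0.45 (adjusted p = 0.00261). Chac1 gave -2.10 ± 0.64, which was not called. Hspa5 differed by -0.00 ± 0.29, Xbp1 by -0.08 ± 0.29 and Atf4 by -0.20 ± 0.37. The call of Asns was lost without any 1 of the WT E2 2 h arrays and without WT IGF1 2 h replicate 2.

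At 24 h in WT, E2 was higher than IGF1 in 15 genes and lower in 0, where 7.59% of all genes were called higher and 2.49% lower (10.1% together). Fkbp11 (1.87 ± 0.24), Creb3l1 (1.65 ± 0.23), Ssr2 (1.65 ± 0.37) and Dnajb11 (1.54 ± 0.30) led, with Hspa5 at 1.03 ± 0.29. Xbp1, Atf4 and Ddit3 gave 0.39 ± 0.29, 0.43 ± 0.37 and -0.53 ± 0.38. The 15 calls became 8 without WT IGF1 24 h replicate 2. The doses and the number of injections differ between the agents.

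In KO, E2 at 2 h was lower than IGF1 in 4 genes and higher in 0, where 1.9% of all genes were called lower and 1.14% higher (3.04% together). They were Chac1 (-2.66 ± 0.64), Asns (-2.18 ± 0.58), Ddit3 (-1.63 ± 0.38) and Atf4 (-1.48 ± 0.37), and Hspa5 and Xbp1 gave -0.37 ± 0.29 and -0.25 ± 0.29. These 4 calls became 8 without KO IGF1 2 h replicate 3, 1 without KO E2 2 h replicate 1, and 0 without KO E2 2 h replicate 2 or 3 or KO IGF1 2 h replicate 1 or 2. At 24 h, E2 was lower than IGF1 in 22 genes and higher in 1, Ppp1r15a, where 11.3% of all genes were called lower and 10.2% higher. Calr (-2.51 ± 0.29), P4hb (-2.43 ± 0.26), Ssr2 (-2.07 ± 0.37) and Pdia3 (-1.97 ± 0.26) differed most, with Hspa5 at -1.62 ± 0.29.

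The effect of the receptor knockout on each response was tested with an interaction, in which a negative value means a lower change in KO. For E2 at 2 h, 3 genes had a smaller change in KO, where 4.39% of all genes were called lower and 3.61% higher: Fkbp11 (-2.87 ± 0.34), Ppp1r15a (-2.62 ± 0.21) and Atf4 (-2.01 ± 0.52). Hspa5 and Xbp1 gave -1.27 ± 0.40 and -0.77 ± 0.41, which did not pass, and Ddit3 gave 0.03 ± 0.54. For E2 at 24 h, 22 genes had a lower change in KO and 1, Ppp1r15a, a higher one, where 12.2% of all genes were called lower and 9.96% higher. The median was -1.45 over the 34 genes and 0.19 over all genes. Calr (-3.22 ± 0.41), P4hb (-3.13 ± 0.36), Ssr2 (-3.07 ± 0.52) and Pdia6 (-3.04 ± 0.36) were the largest, Hspa5 gave -2.34 ± 0.40 and Xbp1 -1.55 ± 0.41. Atf4 and Ddit3, at -0.77 ± 0.52 and 0.15 ± 0.54, did not pass. The count was 20 lower and 1 higher without KO E2 24 h replicate 2, and 21 lower and 0 higher without WT vehicle replicate 1.

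For IGF1 the test found little. At 2 h 1 gene had a smaller change in KO, Creb3l1 (-1.99 ± 0.33, limma adjusted p = 0.0356), where 0.00664% of all genes were called lower and the same share higher; 10 members were lower and 1 was higher at an unadjusted p under 0.05, which 6.87% of all genes passed. Its change without KO IGF1 2 h replicate 3 was -1.86 ± 0.35 (adjusted p = 0.058), and the call was also lost without 8 other single arrays of the 4 groups. At 24 h no member was called, where 0.00664% of all genes were lower and 0% higher; at an unadjusted limma p under 0.05, 2 were higher and 0 lower, near the 6.7% of all genes. Hspa5, Xbp1, Atf4 and Ddit3 gave 0.32 ± 0.40, -0.37 ± 0.41, 0.07 ± 0.52 and -0.17 ± 0.54 at 24 h. Of the 11 genes that IGF1 raised at 24 h in WT, 9 (81.8%) were also called in KO, and they were 47.4% of the 19 called there; over all genes the shares were 76% and 27.2%. Of the 23 called at 2 h in WT, 11 (47.8%) were called in KO, 91.7% of the 12 there, against 35.7% and 81.4% over all genes. For E2 at 2 h, 1 of 17 (5.88%) was shared, against 1.08% over all genes. None of these differences between members and all genes was tested.

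**Figure D5:**
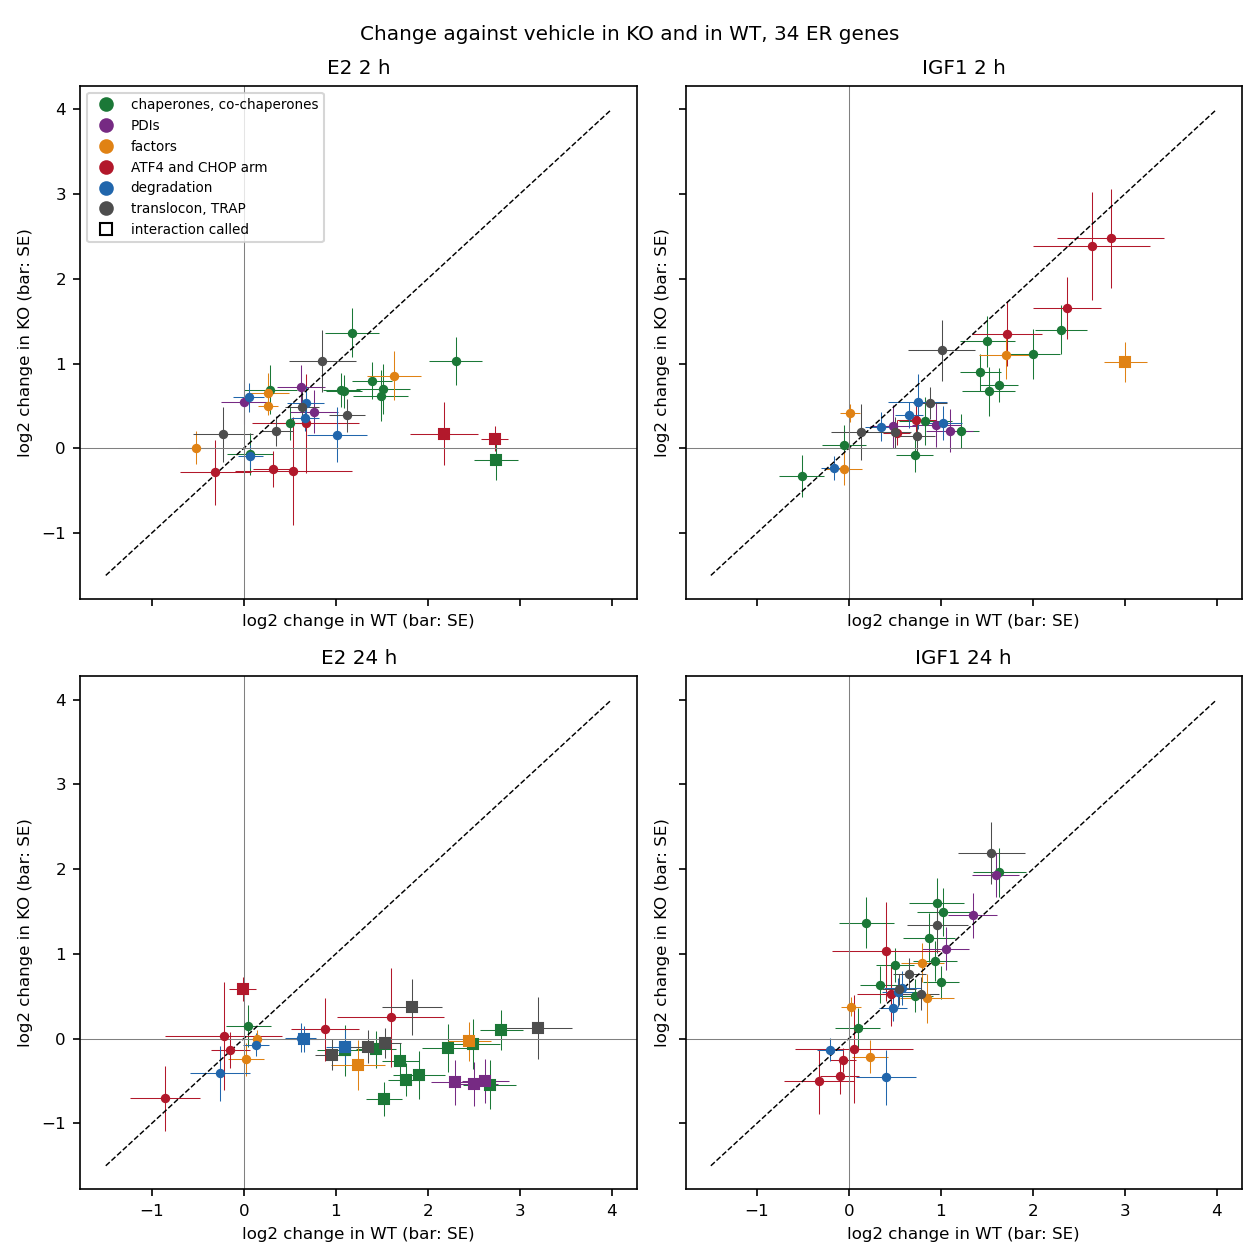
Log2 change against vehicle in KO (vertical) and in WT (horizontal) for the 34 genes in 4 treatments, with standard errors. Colours give the role, squares mark genes whose genotype interaction has limma adjusted p under 0.05, and the dashed line marks equal changes. After E2 for 24 h most squares lie near 0 or below it in KO and up to 3.20 in WT. Ppp1r15a goes the other way, with the highest KO change of the members, 0.59. After IGF1 for 24 h the points follow the dashed line.

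The other genes of the same pathways were taken from 5 lists with 76 measured genes. In WT, E2 raised 21 and lowered 9 at 2 h, against 9.84% and 9.18% of all genes, and raised 48 and lowered 2 at 24 h, against 16.8% and 13.3%. IGF1 raised 27 and lowered 7 at 2 h, against 9.54% and 7.64%, and raised 11 and lowered 1 at 24 h, against 3.32% and 0.962%. In KO, E2 called 0 at either time (background 0.365% and 0% in either direction), and IGF1 raised 12 and lowered 2 at 2 h, against 4.19% and 2.95%, and raised 18 and lowered 0 at 24 h, against 9.28% and 4.35%. Among 19 genes of translocation, signal peptidase and N-glycosylation, 17 rose after E2 for 24 h in WT, with Rpn1 at 3.16 ± 0.29, Ostc at 2.99 ± 0.45, Ddost at 2.76 ± 0.26 and Rpn2 at 2.06 ± 0.20, all parts of the oligosaccharyltransferase. Among 20 other folding genes 13 rose, with Ppib at 2.51 ± 0.58 and Pdia5 at 2.46 ± 0.13, and 1 fell, Uggt2 at -1.51 ± 0.19.

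The other sensors and ATF4 targets bore on the early pattern. Ern1, which encodes IRE1, rose by 2.99 ± 0.16 after E2 for 2 h in WT (limma adjusted p = 9.43e-13), and Eif2ak3, which encodes PERK, fell by 0.68 ± 0.14. Ppp1r15b, the constitutive counterpart of Ppp1r15a, rose by 1.97 ± 0.24 with E2 and 2.04 ± 0.24 with IGF1 for 2 h. Of 12 other ATF4 targets, 1 rose and 2 fell after E2 for 2 h, whereas 7 rose and 1 fell after IGF1 for 2 h, with Mthfd2 at 2.98 ± 0.50, Psat1 at 1.94 ± 0.47, Slc3a2 at 1.53 ± 0.28 and Phgdh at 1.32 ± 0.28. In KO 5 of the 12 rose after IGF1 for 2 h, with Mthfd2 at 2.43 ± 0.50. E2 for 24 h raised 5 of the 12 in WT and lowered 0, with Shmt2 at 2.69 ± 0.28 and Psat1 at 2.53 ± 0.47. The shares of all genes called in these comparisons are those of the paragraph above. The 1 of 12 that rose after E2 for 2 h is near that share.

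Markers of cell types moved with some of these results. In WT after E2 for 24 h, 9 of 11 epithelial markers were higher and 0 lower, against 16.8% and 13.3% of all genes, and the log2 of their summed level was 16.38 to 16.57, against 13.21 to 14.17 with vehicle. After E2 for 2 h it was 13.46 to 14.05, and after IGF1 for 24 h 14.41 to 14.60. In KO it was 14.34 to 15.11 with vehicle and 13.50 to 15.27 after E2 for 24 h, and 4 of the 11 were higher in KO than in WT vehicle, against 1.61% of all genes. All 11 lay above the floor in the 5 WT groups. Of 8 stromal markers, 3 were higher and 1 lower in WT after E2 for 24 h, against the same 16.8% and 13.3%, and 4 were higher and 1 lower in KO after IGF1 for 24 h, against 9.28% and 4.35%. Of 7 B and plasma cell markers, which bear on secretory genes such as Derl3 and Fkbp11, 1 or 2 lay above the floor in each group. In whole uterus, more cells of a type and more RNA per cell cannot be told apart, and the part of cell makeup in these results was not tested.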

How the data were processed

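Uterine RNA was hybridised to Affymetrix arrays, 30 in all. The authors deposited log2 values per probe set, and the unit was read from their range; their normalization is not given in the sources used. Probe sets bearing 1 symbol were kept, and each of 30142 genes was read from the probe set of highest mean. Differences between 10 group means were fitted over all 30 arrays with limma 3.58.1 in R 4.3.3 (lmFit and eBayes, 21 comparisons). P-values were adjusted by Benjamini-Hochberg over all genes within each comparison, and a gene was called under 0.05. The number of arrays limits the precision. The script was tested on simulated data.

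The members and lists were chosen with earlier results of these data known. Named in each comparison are the called members, up to 8 rises and 8 falls, and always Hspa5, Xbp1, Atf4 and Ddit3. Alternatives were leaving out each array, a block for replicate number, array weights, a robust prior with a trend, the compared groups alone, centring, quantile normalization, no dim genes and the mean of probe sets. The labels share replicate numbers between groups, but same-numbered arrays did not deviate together, so the numbers were not used as pairs. Promoters were read from RefSeq with Python 3.11.15, and figures were drawn with matplotlib 3.10.9.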

Additional observations from a re-analysis of the deposited data

Results flagged for a closer look

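For 27 results the log2 change against vehicle differed between KO and WT by the test of that difference, limma's interaction with adjusted p-values, given as KO change minus WT change with its SE.

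After E2 for 2 h these were Fkbp11 (-2.87 ± 0.34, limma adjusted p = 3.04e-06), Atf4 (-2.01 ± 0.52, limma adjusted p = 0.017) and Ppp1r15a (-2.62 ± 0.21, limma adjusted p = 4.9e-09), all genes that rose in WT and were not called in KO. After IGF1 for 2 h it was Creb3l1 (-1.99 ± 0.33, limma adjusted p = 0.0356), which rose in both genotypes and less in KO.

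After E2 for 24 h the difference was found in every role. Among the chaperones and co-chaperones it was found for Hspa5 (-2.34 ± 0.40, limma adjusted p = 0.000223), Hsp90b1 (-2.25 ± 0.28, limma adjusted p = 5.13e-06), Calr (-3.22 ± 0.41, limma adjusted p = 6.74e-06), Canx (-2.24 ± 0.28, limma adjusted p = 6.14e-06), Hyou1 (-1.96 ± 0.29, limma adjusted p = 3.6e-05), Dnajb11 (-2.55 ± 0.42, limma adjusted p = 0.000123), Dnajc3 (-1.56 ± 0.31, limma adjusted p = 0.000937), Sdf2l1 (-2.33 ± 0.40, limma adjusted p = 0.000222), Creld2 (-1.23 ± 0.42, limma adjusted p = 0.0403) and Fkbp11 (-2.70 ± 0.34, limma adjusted p = 5.71e-06). Among the disulfide isomerases it was found for Pdia3 (-2.81 ± 0.37, limma adjusted p = 1.22e-05), Pdia6 (-3.04 ± 0.36, limma adjusted p = 3.38e-06) and P4hb (-3.13 ± 0.36, limma adjusted p = 2.38e-06). Among the transcription factors it was found for Xbp1 (-1.55 ± 0.41, limma adjusted p = 0.00974) and Creb3l1 (-2.49 ± 0.33, limma adjusted p = 1.11e-05). Among the genes of degradation it was found for Syvn1 (-0.65 ± 0.22, limma adjusted p = 0.0329) and Edem1 (-1.20 ± 0.28, limma adjusted p = 0.00421). Among the translocon and TRAP complex it was found for Sec61a1 (-1.15 ± 0.26, limma adjusted p = 0.00318), Sec61b (-1.46 ± 0.47, limma adjusted p = 0.0279), Ssr1 (-1.58 ± 0.25, limma adjusted p = 0.000102), Ssr2 (-3.07 ± 0.52, limma adjusted p = 0.000169) and Ssr3 (-1.45 ± 0.28, limma adjusted p = 0.000616). In the ATF4 and CHOP arm it was found for Ppp1r15a (0.60 ± 0.21, limma adjusted p = 0.0386), the 1 gene whose change was higher in KO. Of these genes, the 22 others rose in WT.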

How the results depend on the processing

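Of the member results followed under the alternatives, 4014 kept their direction and call, 500 were no longer called, 26 became called and 0 reversed. Most uncalled member results were not among those followed, so new calls are undercounted. Array weights made 6 of the followed results called, but moved the count for WT IGF1 24 h from 11 to 19. Using only the compared groups gave 0 calls for KO E2 2 h, KO E2 24 h minus 2 h, KO E2 minus IGF1 at 2 h, KO IGF1 2 h and the interaction for IGF1 at 2 h, 1 for KO IGF1 24 h minus 2 h, 1 for WT IGF1 24 h and 8 for WT E2 minus IGF1 at 2 h. Quantile normalization gave 1 for KO E2 2 h, 7 for WT IGF1 24 h and 0 for the interaction for IGF1 at 2 h, and the trended robust prior gave 1 for KO E2 2 h. Array weights gave 12 for WT E2 minus IGF1 at 2 h, 19 for WT IGF1 24 h and 6 for the interaction for E2 at 2 h. Leaving out both arrays of lowest weight gave 6 for KO E2 24 h minus 2 h and 5 for WT IGF1 24 h. Fits of the compared groups alone have fewer residual degrees of freedom and take the variance from those groups only. The cause of the changed counts was not tested.

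With 1 array left out at a time, calls against vehicle ranged from 14 to 16 for WT E2 2 h, 22 to 23 for WT E2 24 h, 18 to 22 for WT IGF1 2 h, 4 to 14 for WT IGF1 24 h, 0 to 2 for KO E2 2 h, 0 to 0 for KO E2 24 h, 0 to 17 for KO IGF1 2 h and 12 to 18 for KO IGF1 24 h, and 0 to 0 between the vehicle groups. Interactions ranged from 3 to 4 for E2 at 2 h, 20 to 22 for E2 at 24 h, 0 to 1 for IGF1 at 2 h and 0 to 0 for IGF1 at 24 h. E2 minus IGF1 ranged from 4 to 5 and 8 to 16 in WT and from 0 to 8 and 17 to 23 in KO, at 2 h and 24 h. The 24 h minus 2 h comparisons ranged from 15 to 18 (WT E2), 11 to 15 (WT IGF1), 3 to 16 (KO E2) and 5 to 12 (KO IGF1).

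Same-numbered arrays did not deviate together: over 135 pairs the median correlation of deviations was 0.00781, and 28 exceeded 0.1. With the replicate number as a block, 17 members were called for WT E2 2 h and 24 for WT E2 24 h, and no count moved by over 1.5 times.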
